A study of Mus musculus with 24 samples.

Results

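The 10 genes described here encode Fc gamma receptors and other surface receptors with which phagocytes bind and engulf particles: Fcgr1, Fcgr2b, Fcgr3, Fcgr4, Fcer1g, Siglec1, Clec7a, Msr1, Cd36 and Mertk. They were found by symbol, taken from each probe's accession in RefSeq's gene table or else from the scanner file, which gave 12 probes for 10 of the 24097 gene symbols on the array. Membership by symbol uses no measured value, but the members were chosen with earlier results of these data known. Each gene was represented by the probe with the highest mean over the 24 arrays, irradiated arrays included. All 10 were among the 12993 genes tested, a set limited to genes detected (well above background, by the scanner's own flag) on 4 or more arrays of some group. Fcgr1 and Siglec1 met that requirement through the wild-type 6 Gy group alone, and Msr1 and Mertk through irradiated groups alone, so these 4 genes had an unequal chance of showing a rise.

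The study profiled RNA from the blood of male mice of strain 129S/J, wild type or Parp1-/- (lacking poly(ADP-ribose) polymerase 1, an enzyme that responds to DNA breaks), 24 h after X-rays or sham exposure. The knockout groups received 0 Gy (n = 5) or 6 Gy (n = 5), the dose that kills 50% of knockout mice within 30 days. The wild-type groups received 0 Gy (n = 5), 6 Gy (n = 5) or 8.8 Gy (n = 4), the last being the corresponding wild-type dose, and each array held 1 mouse. All blood was drawn by cardiac puncture into an RNA-stabilising lysis solution and depleted of globin transcripts.

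Fc gamma receptors bind the constant part of IgG. Fcgr1, Fcgr3 and Fcgr4 are activating receptors that signal and reach the surface through the common gamma chain Fcer1g, whereas Fcgr2b carries an inhibitory motif and opposes them. In blood these receptors sit mainly on neutrophils and monocytes, with Fcgr2b also on B cells. Siglec1 (sialoadhesin) and Clec7a (Dectin-1) are lectins that bind sialic acid and fungal beta-glucan, Msr1 and Cd36 are scavenger receptors for modified lipoproteins, and Mertk is a receptor tyrosine kinase for the uptake of apoptotic cells.

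Levels are given as log2 signal minus the 75th percentile of the same array, so 1 unit is a doubling relative to that array, and levels of different probes are not compared with each other. Between 36.4% and 57.5% of probes per array were well above background, with the knockout 0 Gy group lowest at 39.0% ± 2.37 (SD, n = 5). Parp1 lay between -0.94 and -0.35 on wild-type sham arrays and between -3.82 and -2.29, never well above background, on knockout sham arrays. In 2 irradiated cases its level went against the label. It was -1.67, well above background, on the array labelled knockout 6 Gy replicate 1. It was -3.95, not well above background, on that labelled wild-type 8.8 Gy replicate 4. The other irradiated wild-type arrays lay between -2.33 and -1.25, with wild-type 6 Gy replicates 1 and 2 also not well above background, and the other irradiated knockout arrays between -5.01 and -3.45. The array labelled knockout 6 Gy replicate 1 also nearly equalled the array labelled wild-type 8.8 Gy replicate 2, with an SD of probe differences of 0.168 against 0.271 for the next closest pair of arrays. Their largest difference in any of the 10 genes was 0.84, the smallest such value of any pair of arrays, where the median was 2.59. The arrays that disagree with their Parp1 label are called the doubted arrays. Counts of member calls and the calls of single members in their groups are also given without them, whereas list counts and correlations include them.

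The 4 genes of the low-affinity receptor cluster each had a probe of their own. The probes of Fcgr2b (chr1:172890988-172891047, minus strand), Fcgr4 (chr1:172959738-172959797, plus strand), Fcgr3 (chr1:172984129-172984188, minus strand) and Fcer1g (chr1:173159794-173159853, minus strand) lie within 268866 bases of chromosome 1 in build mm9. Fcgr2b and Fcgr3 are close relatives in their extracellular parts, so the first 30 bases of their 60-base probes are shown with those of Fcgr4, and no 2 member probes shared a run of over 8 bases. The probes were compared only with each other, so whether a probe also binds the RNA of a related gene was not tested. Whether each probe lies in coding or untranslated sequence was not analysed here.
Fcgr2b probe: acttctgtgagtcctgaaaccaacagacac
Fcgr3 probe: ctacaaaagtaatttctctatcccaaaagc
Fcgr4 probe: ccaagaagcgattcttcagaattttacact

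In wild-type mice given 6 Gy, 7 of the 10 genes rose against the wild-type sham group and 0 fell (limma, Benjamini-Hochberg adjusted p under 0.05), where 15.5% of all genes tested rose and 10.9% fell. The risers were the activating receptors Fcgr1, Fcgr3 and Fcgr4, their signalling chain Fcer1g, the lectins Siglec1 and Clec7a, and Mertk. Of these, Fcgr3, Fcgr4, Fcer1g and Clec7a were well above background on all 24 arrays. Fcgr1 and Siglec1 met the detection requirement through the wild-type 6 Gy group alone, and Mertk and Msr1 through irradiated groups alone. That requirement favours rises of these genes in the counts and medians given here. In wild-type mice given 8.8 Gy, 5 genes rose (Fcgr3, Fcgr4, Fcer1g, Siglec1 and Clec7a) and 0 fell, against 7.12% and 9.1% of all genes. In knockout mice given 6 Gy, 4 rose (Fcgr3, Fcer1g, Clec7a and Msr1) and 1 fell (Cd36), against 12.4% and 10.5%. The median log2 difference of the 10 genes was 1.33, 1.20 and 0.96 in these comparisons, beside 0.04, 0.03 and -0.07 for all genes. Both wild-type comparisons use the same 5 sham arrays, so they are not independent of each other. Without the doubted arrays 6, 4 and 4 members were called in the 3 responses. The shares of all genes in that refit are not given here. In whole blood, more cells of a type and more RNA per cell cannot be told apart.

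**Figure D1:**
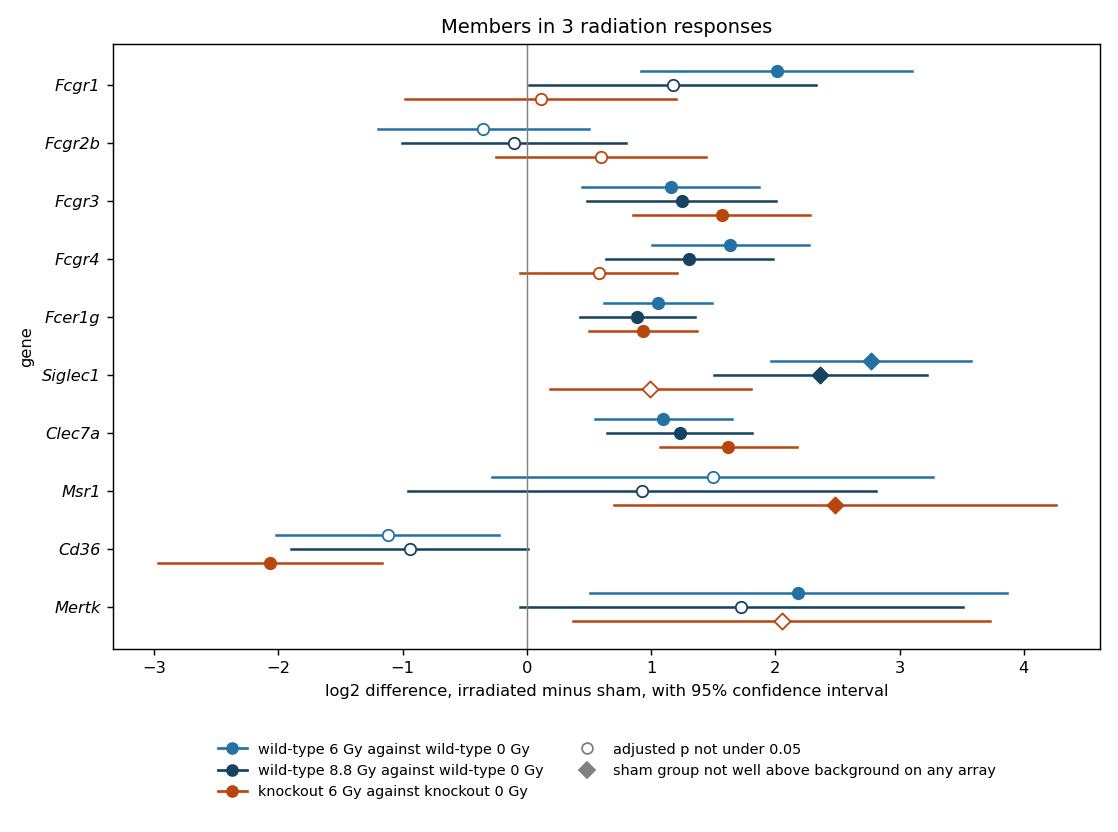
Log2 differences of the 10 genes (x axis, irradiated minus sham, limma estimate with 95% confidence interval) in the wild-type 6 Gy (light blue), wild-type 8.8 Gy (dark blue) and knockout 6 Gy (orange) responses. Filled symbols have an adjusted p under 0.05, and diamonds mark estimates whose sham group was not well above background on any array, where the size is a difference from background noise. Fcgr3, Fcer1g and Clec7a are filled in each response, and Cd36 lies left of 0 in each.

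The scale and the scan day bear on these counts. Centring each array on its median instead of its 75th percentile moved the median of all genes by -0.78 in the wild-type 6 Gy response. It also turned the split of all calls from 2016 higher and 1412 lower to 532 higher and 5553 lower. On that scale Fcgr1, Fcgr4 and Siglec1 still rose, Cd36 fell (-1.90, adjusted p = 0.000248), and Fcgr3, Fcer1g, Clec7a and Mertk no longer passed the test. Their differences shrank to 0.38 (Fcgr3), 0.28 (Fcer1g), 0.32 (Clec7a) and 1.41 (Mertk). At 8.8 Gy, median centring kept the rises of Siglec1 and Clec7a (0.91, adjusted p = 0.0369). It lost those of Fcgr3 (0.93, adjusted p = 0.145), Fcgr4 (0.99, adjusted p = 0.0540) and Fcer1g (0.57, adjusted p = 0.0968), and Cd36 fell (-1.26, adjusted p = 0.0227). The wild-type sham arrays were all scanned on 1 day and both irradiated wild-type groups on another, with only knockout arrays linking the days. With scan day as a fixed term, 0 of the 10 genes passed in each of the 3 responses (limma), and each called gene kept its direction except Msr1 in knockout mice. The share of all genes passing in that fit is not given here, so 0 of 10 is not read as a result about these genes. The wild-type 6 Gy differences were then 2.48 ± 0.84 (SE) for Fcgr1, 1.98 ± 0.73 for Fcgr3, 1.78 ± 0.65 for Fcgr4, 0.998 ± 0.43 for Fcer1g and 0.63 ± 0.56 for Clec7a, with SEs larger than without that term. In knockout mice Clec7a differed by 1.84 ± 0.52 and Fcer1g by 1.46 ± 0.40. These knockout estimates, and that of Msr1, rest on 1 irradiated array (knockout 6 Gy replicate 5) and 2 sham arrays of its scan day. No other knockout 6 Gy array shared a scan day with a knockout sham array. The wild-type estimates are tied to the wild-type sham day through 1 array, knockout 6 Gy replicate 4. The directions kept in this fit therefore rest on few arrays. Wild-type dose and scan day cannot be told apart without the knockout arrays, and the sham groups of the 2 genotypes shared no scan day either.

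Fcer1g, the chain shared by the activating receptors, separated sham from irradiated arrays. Its levels on the wild-type sham arrays were 5.41, 5.52, 5.96, 5.62 and 5.76, and after 6 Gy they were 7.14, 6.76, 6.49, 6.46 and 6.72. After 8.8 Gy the wild-type levels were 6.74, 6.57, 6.65 and 6.22. No irradiated wild-type array overlapped the sham range, a pattern that 8.96% of genes showed upwards at 6 Gy and 6.7% at 8.8 Gy. The log2 difference was 1.06 ± 0.21 (SE, adjusted p = 0.00173) at 6 Gy and 0.89 ± 0.22 (adjusted p = 0.00926) at 8.8 Gy, or 0.997 (adjusted p = 0.0149) without the doubted arrays, and neither call held on the median-centred scale. In knockout mice the sham levels were 5.23, 5.64, 5.91, 5.86 and 6.12 and the 6 Gy levels 6.56, 7.19, 6.18, 6.59 and 6.89, again without overlap (9.37% of genes upwards). That is a rise of 0.93 ± 0.21 (adjusted p = 0.00279), and 0.96 (adjusted p = 0.00554) without the doubted arrays.

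Fcgr4, an activating receptor for IgG2 subclasses found on monocytes and neutrophils, rose in wild-type mice. Sham levels were 1.56, 1.48, 2.23, 1.65 and 1.41, and the 6 Gy levels were 4.57, 2.68, 2.82, 2.98 and 3.47. At 8.8 Gy they were 3.11, 2.84, 2.82 and 3.12, tightly grouped and above every sham array. The rise was 1.64 ± 0.31 (adjusted p = 0.00107) at 6 Gy and 1.31 ± 0.32 (adjusted p = 0.0087) at 8.8 Gy, or 1.26 (adjusted p = 0.0326) without the doubted arrays. The 8.8 Gy call was lost on the median-centred scale. In knockout mice the ranges overlapped: sham levels were 1.55, 2.32, 2.22, 2.10 and 2.56, and 6 Gy levels 2.70, 3.01, 1.95, 2.69 and 3.28. The difference there was 0.58 ± 0.31 (adjusted p = 0.179, 95% interval -0.05 to 1.21), and 0.58 (adjusted p = 0.225) without the doubted arrays. It passed in the authors' deposited table (0.84, adjusted p = 0.0285) and with normexp background correction (0.88, adjusted p = 0.0484). The 2 genotypes' responses differed by -1.06 ± 0.43, which did not pass (adjusted p = 0.124).

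Fcgr3, the low-affinity activating receptor, rose in each irradiated group. Wild-type sham levels of 1.24, 1.46, 1.93, 0.89 and 1.94 compare with 3.41, 1.45, 2.20, 3.47 and 2.71 after 6 Gy, where replicate 2 stayed within the sham range. After 8.8 Gy they were 2.05, 2.77, 3.05 and 3.08, all above the sham arrays. The knockout levels went from 1.51, 1.81, 1.67, 0.83 and 1.19 in the sham group to 2.79, 3.10, 2.29, 3.55 and 3.11 at 6 Gy, with no overlap. The rise was 1.16 ± 0.35 (adjusted p = 0.0183) at wild-type 6 Gy, 1.25 ± 0.37 (adjusted p = 0.0233) at 8.8 Gy and 1.57 ± 0.35 (adjusted p = 0.00238) in knockout mice. The wild-type calls were near the threshold and were lost on the median-centred scale. Without wild-type 6 Gy replicate 1 the adjusted p was 0.0567, and at 8.8 Gy it lay between 0.0572 and 0.0693 when wild-type 0 Gy replicate 4 or wild-type 8.8 Gy replicate 2, 3 or 4 was left out. Without both doubted arrays it was 0.0793 at 8.8 Gy and 0.00527 in knockout mice.

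Fcgr1, the high-affinity IgG receptor of monocytes and macrophages, was near the detection limit without irradiation. Among the wild-type sham arrays, at -3.88, -3.60, -3.49, -3.12 and -2.57, only the first was well above background, since the limit differs between arrays. After 6 Gy the levels were -0.76, -2.11, -1.74, -1.43 and -0.57, well above background on 4 of 5 arrays and without overlap with the sham group. The rise of 2.01 ± 0.53 (adjusted p = 0.00937) did not pass with quantile normalization between arrays (1.31, adjusted p = 0.0918). At 8.8 Gy the levels were -1.73, -2.17, -1.65 and -3.09, a difference of 1.17 ± 0.56 (adjusted p = 0.156). In knockout mice neither group stood out: sham levels were -3.42, -4.19, -0.96, -2.53 and -2.49, and 6 Gy levels -2.54, -1.43, -2.94, -1.83 and -4.30, with only 1 and 2 of 5 arrays well above background. The knockout difference was 0.11 ± 0.53 (adjusted p = 0.899) and the difference between the genotypes' responses -1.90 ± 0.74 (adjusted p = 0.111).

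Fcgr2b, the inhibitory receptor, did not pass in any of the 8 comparisons. Its wild-type levels lay between -1.60 and -0.11 in the sham group, -1.44 and -0.54 at 6 Gy, and -1.05 and -0.27 at 8.8 Gy. Knockout sham arrays ranged more widely, from -3.23 to -0.53, with 2 of 5 not well above background, and the 6 Gy arrays from -1.71 to 0.10. The differences were -0.35 ± 0.41 (95% interval -1.20 to 0.50) at wild-type 6 Gy, -0.10 ± 0.43 (-1.002 to 0.796) at 8.8 Gy and 0.59 ± 0.41 (-0.25 to 1.44) in knockout mice. The array carries this probe on 10 spots, which were averaged. The B-cell markers, genes of another cell that carries Fcgr2b, fell for 9 of 11 tested in each response, and their part in the Fcgr2b values was not tested. Within groups Fcgr2b ran against the platelet list (r = -0.53, rho = -0.55, permutation p = 0.00263 for r, adjusted p = 0.0376 for r and 0.0808 for rho over 100 relations of the 10 genes with 10 lists, and r = -0.51 without the 2 arrays farthest from the median list level). The same held for the erythroid list (r = -0.58, rho = -0.51, permutation p = 0.00328 for r, adjusted p = 0.0410 for r and 0.108 for rho), and that r was -0.38 without the 2 farthest arrays.

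**Figure D2:**
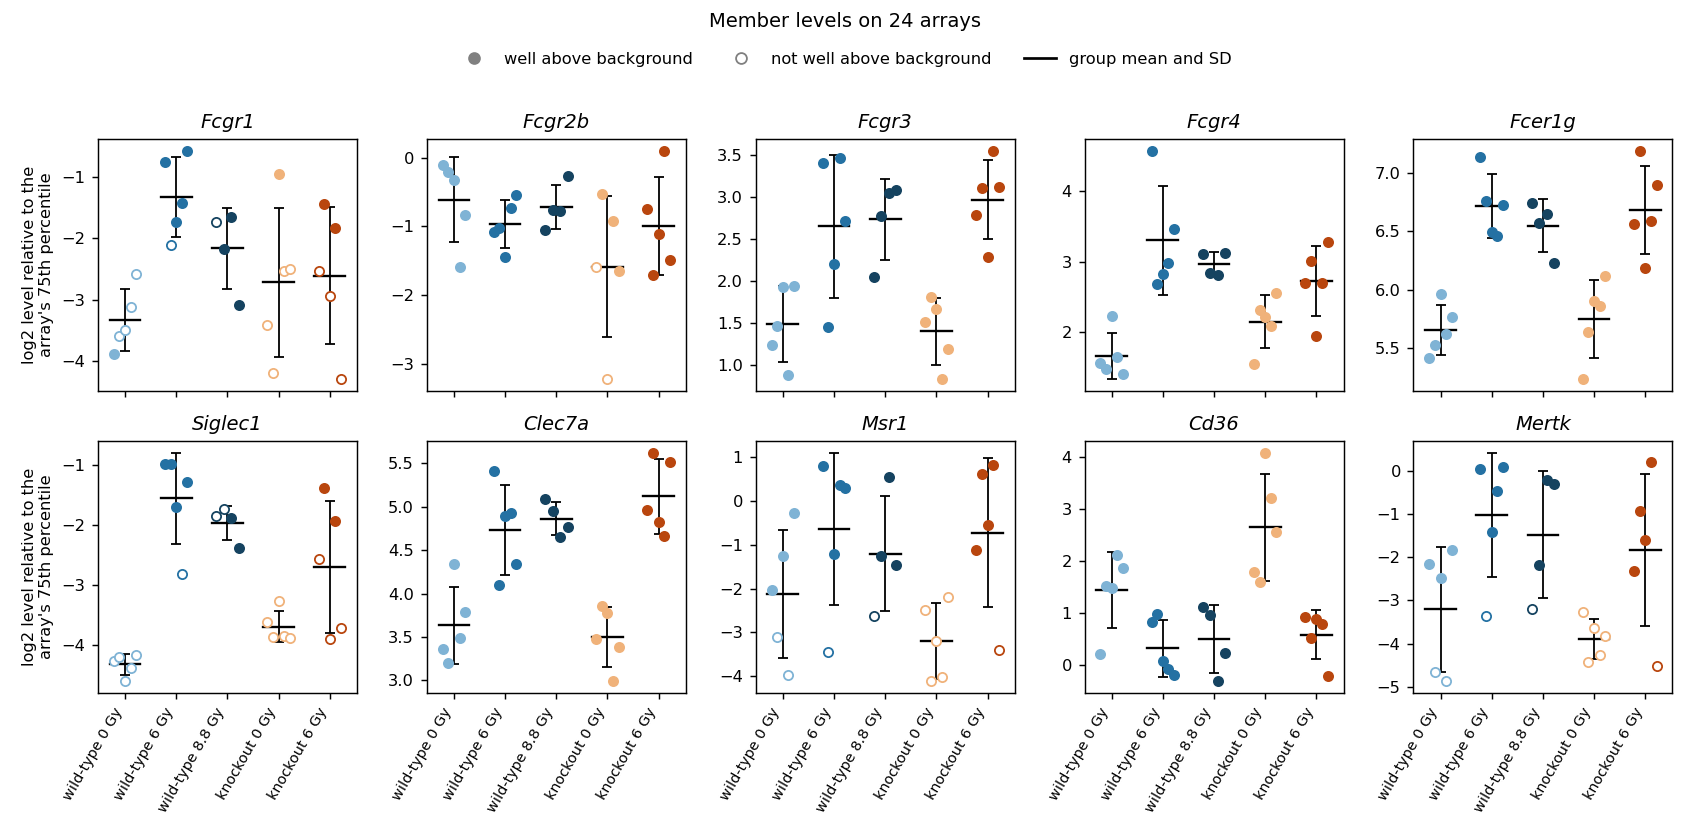
Level of each gene on each of the 24 arrays (points, log2 relative to the array's 75th percentile) in the 5 groups, with the group mean and SD as bars. Open points are not well above background, and the y axis differs between panels. Fcer1g, Fcgr4, Fcgr3 and Clec7a are filled on every array, whereas every sham point of Siglec1 is open.

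Promoter sequences (RefSeq, build GRCm38.p6) were found for 8 of the 10 genes. Those of Fcgr4 and Fcgr1 are shown, picked because these receptors are textbook interferon targets. They are the 250 bases before the annotated start, read along the gene, from chr1:171018676-171018925 (plus strand) and chr3:96293970-96294219 (minus strand). Capitals mark matches to 3 motifs chosen after the promoters were seen and searched on both strands: GAAA followed by NN and GAAA (bound by interferon regulatory factors), TTCNNNGAA (bound by STAT factors) and AGGAAG (an ETS core like that of PU.1), or their reverse complements.
Fcgr4: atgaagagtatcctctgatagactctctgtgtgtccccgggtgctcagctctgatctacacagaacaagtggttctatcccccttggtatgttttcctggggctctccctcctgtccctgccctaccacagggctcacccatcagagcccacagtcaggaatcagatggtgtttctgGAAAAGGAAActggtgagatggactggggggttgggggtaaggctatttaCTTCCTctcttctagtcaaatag
Fcgr1: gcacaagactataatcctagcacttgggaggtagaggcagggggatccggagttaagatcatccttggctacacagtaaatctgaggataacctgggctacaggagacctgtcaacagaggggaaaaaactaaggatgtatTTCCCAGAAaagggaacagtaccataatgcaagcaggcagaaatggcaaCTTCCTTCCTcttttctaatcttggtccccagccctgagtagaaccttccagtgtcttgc
The Fcgr4 window, alone among the 8, holds a match to the first motif, GAAAAGGAAA at -73 to -64, and 2.98% of 32851 promoters hold that motif. The Fcgr1 window, alone among the 8, holds a match to the second, TTCCCAGAA at -109 to -101, a motif in 7.02% of promoters. AGGAAG was found in the windows of Fcgr1, Fcgr3, Fcgr4 and Fcer1g, and in 29.5% of all promoters. These are matches of letters and were not tested for binding. In knockout mice 13 of 17 interferon-response genes rose, while Fcgr1 (0.11) and Fcgr4 (0.58) did not pass. A part of interferon in the levels of these genes was not tested.

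Siglec1, a sialic acid receptor of macrophages and of interferon-exposed monocytes, was on its chosen probe not well above background on any of the 10 sham arrays. Wild-type sham levels were -4.27, -4.20, -4.60, -4.38 and -4.18. After 6 Gy they were -0.99, -0.98, -1.70, -2.81 and -1.28, well above background on 4 of 5 arrays, and after 8.8 Gy -1.85, -1.73, -1.89 and -2.38, well above background on 2 of 4. Measured against the detection limit of the sham arrays, Siglec1 was at least 2.93-fold higher after 6 Gy (adjusted p = 7.73e-05; group means -1.55 and -4.32) and at least 2.21-fold higher after 8.8 Gy (adjusted p = 0.000749; means -1.96 and -4.32). This bound sets the mean of the irradiated arrays against the mean, per sham array, of the dimmest signal that still counted as well above background. The irradiated mean includes arrays not well above background, 2 of 4 at 8.8 Gy, so the bound is not a strict lower limit. Without the doubted arrays the 8.8 Gy call stood (adjusted p = 0.00272). The second Siglec1 probe was brighter in the sham groups, at means of -3.79 (wild type, 1 array well above background) and -3.50 (knockout). Its means were -2.06 after wild-type 6 Gy and -3.09 after 8.8 Gy, where replicates 3 and 4 lay at -4.08 and -4.41. With both probes averaged the calls also stood (adjusted p = 0.000773 and 0.0187). They depended on how background was handled. With normexp background correction the 6 Gy call was lost (0.56, adjusted p = 0.162) and the 8.8 Gy call was kept. Normexp without spots dimmer than their local background lost the 8.8 Gy call (0.45, adjusted p = 0.189) and kept the 6 Gy call. The second probe was not tested alone, so the folds above hold for the chosen probe only.

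In knockout mice Siglec1 did not pass. The sham levels were -3.62, -3.87, -3.26, -3.84 and -3.88 and the 6 Gy levels -2.57, -1.39, -3.90, -1.93 and -3.72, well above background on 2 of 5 arrays (adjusted p = 0.0690). The adjusted p was 0.0452 without wild-type 6 Gy replicate 4, 0.0180 without knockout 6 Gy replicate 3 and 0.0250 without knockout 6 Gy replicate 5. It was also under 0.05 with median centring (0.0477) and with quantile normalization (0.0218), and was 0.113 without the doubted arrays. The mean of the irradiated arrays was below the detection limit of the sham arrays, so no fold is given. The difference between the genotypes' responses had an adjusted p of 0.0547. It was 0.0279 without wild-type 6 Gy replicate 4, 0.0445 without knockout 6 Gy replicate 2, 0.0266 with no filter on dim probes and 0.0569 without the doubted arrays. Both sham groups were at background, and the background itself differed: the dimmest signal well above it lay between -2.32 and -1.56 on knockout sham arrays and between -4.32 and -2.51 on wild-type ones. The part of that gap in the genotype difference was not tested.

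Clec7a, the beta-glucan receptor of myeloid cells, rose in each response. Wild-type levels were 3.36, 3.20, 4.34, 3.49 and 3.78 in the sham group, 5.41, 4.10, 4.89, 4.92 and 4.34 at 6 Gy, and 5.08, 4.95, 4.65 and 4.77 at 8.8 Gy. Sham replicate 3 reached the lower 6 Gy arrays, and the 8.8 Gy arrays were clear of the sham group. Knockout levels were 3.48, 3.86, 3.77, 2.99 and 3.38 without and 4.96, 5.62, 4.83, 4.67 and 5.51 with 6 Gy, without overlap. The rise was 1.098 ± 0.27 (adjusted p = 0.00615), 1.23 ± 0.28 (adjusted p = 0.00568) and 1.62 ± 0.27 (adjusted p = 0.000213). Without the doubted arrays the last 2 were 1.26 (adjusted p = 0.0168) and 1.66 (adjusted p = 0.000764). On the median-centred scale the knockout rise exceeded the wild-type rise by 1.34 (adjusted p = 0.0191), whereas on the 75th-percentile scale the excess was 0.52 ± 0.38 (adjusted p = 0.398).

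Msr1, the class A scavenger receptor of macrophages, passed only in knockout mice. None of the knockout sham arrays, at -2.50, -4.12, -3.19, -4.02 and -2.18, was well above background. After 6 Gy the levels were -1.12, 0.61, -0.54, 0.84 and -3.41, and all but the last were. That is at least 2.39-fold higher than the sham detection limit (adjusted p = 0.0397; means -0.72 and -3.20). The call did not hold without the doubted arrays (adjusted p = 0.0596) with both Msr1 probes averaged (0.0795), with no filter on dim probes (0.0680) or without any 1 of 7 single arrays (adjusted p up to 0.112): knockout 0 Gy replicate 2, 3 or 4, or knockout 6 Gy replicate 1, 2, 3 or 4. Wild-type levels were scattered, at -2.03, -3.10, -1.26, -3.98 and -0.28 in the sham group, 0.80, -3.45, -1.21, 0.37 and 0.31 at 6 Gy, and -2.64, -1.26, 0.55 and -1.45 at 8.8 Gy. Those differences were 1.49 ± 0.86 (adjusted p = 0.198) and 0.93 ± 0.91 (adjusted p = 0.517), with group SDs between 1.31 and 1.75.

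Mertk, the apoptotic cell receptor, varied in the same way. Its wild-type levels were -2.16, -4.66, -2.47, -4.87 and -1.84 in the sham group, 0.05, -3.35, -1.41, -0.45 and 0.10 at 6 Gy, and -3.20, -2.18, -0.21 and -0.31 at 8.8 Gy. The 6 Gy rise of 2.19 ± 0.81 passed narrowly (adjusted p = 0.0499) and was lost in 16 of the 24 refits that each left out 1 array (adjusted p up to 0.124, without wild-type 0 Gy replicate 2). At 8.8 Gy the difference was 1.73 ± 0.86 (adjusted p = 0.178). Knockout levels were -3.27, -4.41, -3.65, -4.27 and -3.82, none well above background, and -2.32, -0.93, -1.61, 0.20 and -4.52 at 6 Gy, which is at least 1.11-fold above the sham detection limit and did not pass (adjusted p = 0.0713). Without knockout 6 Gy replicate 5 that adjusted p was 0.0146. The irradiated mean behind the bound includes that array, which was not well above background, so the bound is not a strict lower limit.

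Msr1 and Mertk followed markers of tissue-resident macrophages from array to array. Of 13 such markers (Clec4f, Vsig4, Timd4, Cd5l, Marco and the C1q chains among them), 10 were tested and each of the 13 was well above background on at least 1 array. Their mean level over all 13 ranged from -1.71 to 0.998 in the wild-type sham group, -0.81 to 2.21 at 6 Gy, -0.59 to 1.53 at 8.8 Gy, -1.85 to -0.13 in the knockout sham group and -0.79 to 2.54 at knockout 6 Gy. In the 3 responses 3, 1 and 5 of the 10 rose and 0 fell, where 15.5%, 7.12% and 12.4% of all genes rose. The 8.8 Gy count was thus near the share of all genes. After removal of group means, Mertk correlated with this mean at r = 0.94 (rho = 0.92) and Msr1 at r = 0.94 (rho = 0.91) over 24 arrays. Each had a within-group permutation p of 1e-05, the smallest that 100000 resamples can give, and 0.000333 after adjustment over the 100 relations. Leaving out the 2 arrays farthest from the median list level gave 0.94 and 0.94. Each gene was well above background on 14 of 24 arrays and on 0 of 5 knockout sham arrays, so these correlations rest partly on values at background. The part of these cells in the Msr1 and Mertk results was not tested.

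Mertk also followed the hepatocyte markers, at r = 0.67 (rho = 0.65, permutation p = 0.00235, adjusted p = 0.0376, and r = 0.63 without the 2 farthest arrays). The mean level of 14 hepatocyte markers ran from -2.31 to 7.54 among the wild-type sham arrays alone. Of the 11 that were tested, limma called 0 in each of the 3 responses. It ranged from -0.67 to 7.02 at wild-type 6 Gy, -1.31 to 6.70 at 8.8 Gy, -1.39 to 6.96 in the knockout sham group and -1.92 to 6.58 at knockout 6 Gy. Every group thus held at least 1 array with a high level, and its part in the Mertk values was not tested.

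Cd36, a fatty acid transporter and scavenger receptor present on monocytes, platelets and red cell precursors, was the member with lower levels after irradiation. Wild-type levels were 0.21, 1.53, 1.48, 2.11 and 1.87 in the sham group, 0.83, 0.98, 0.07, -0.08 and -0.20 at 6 Gy, and 1.11, 0.96, -0.31 and 0.23 at 8.8 Gy. Sham replicate 1 lay among the irradiated arrays, and the differences were -1.12 ± 0.43 (adjusted p = 0.0590) and -0.94 ± 0.46 (adjusted p = 0.169). In knockout mice the sham levels were 1.78, 1.59, 4.09, 3.22 and 2.56 and the 6 Gy levels 0.93, 0.51, 0.88, 0.79 and -0.21. These did not overlap, a downward pattern that 6.03% of genes showed, and Cd36 fell by 2.07 ± 0.43 (adjusted p = 0.0017), or -2.16 (adjusted p = 0.00367) without the doubted arrays. The wild-type 6 Gy difference passed without wild-type 0 Gy replicate 1 (-1.43, adjusted p = 0.0244) or knockout 0 Gy replicate 3 (adjusted p = 0.0330). It also passed in the authors' deposited table (-1.16, adjusted p = 0.0297), with median centring, and when only the groups compared were fitted (adjusted p = 0.0479).

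Cd36 followed the erythroid markers. Of 12 tested, 7 fell in wild-type mice at 6 Gy, 3 at 8.8 Gy and 7 in knockout mice, and 0 rose. Ank1, a membrane skeleton anchor of red cells, fell by 4.12 ± 0.60 (adjusted p = 9.73e-05) in wild-type mice at 6 Gy. The mean erythroid level ranged from 1.91 to 3.42 in the wild-type sham group, 0.68 to 1.84 at 6 Gy, 0.97 to 3.31 at 8.8 Gy, 2.95 to 5.00 in the knockout sham group and 1.83 to 2.54 at knockout 6 Gy. Within groups Cd36 correlated with it at r = 0.84 (rho = 0.86, permutation p = 1e-05, adjusted p = 0.000333 over the same 100 relations), and at r = 0.78 without the 2 farthest arrays. The platelet markers showed 0, 6 and 5 of 12 higher and 0 lower in the 3 responses. Within groups Cd36 also ran, at lower r, with the neutrophil list (0.60), a list of endothelium and fat markers (0.56) and the platelet list (0.50). The part of red cell precursors or of these other cells in the Cd36 result was not tested.

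**Figure D3:**
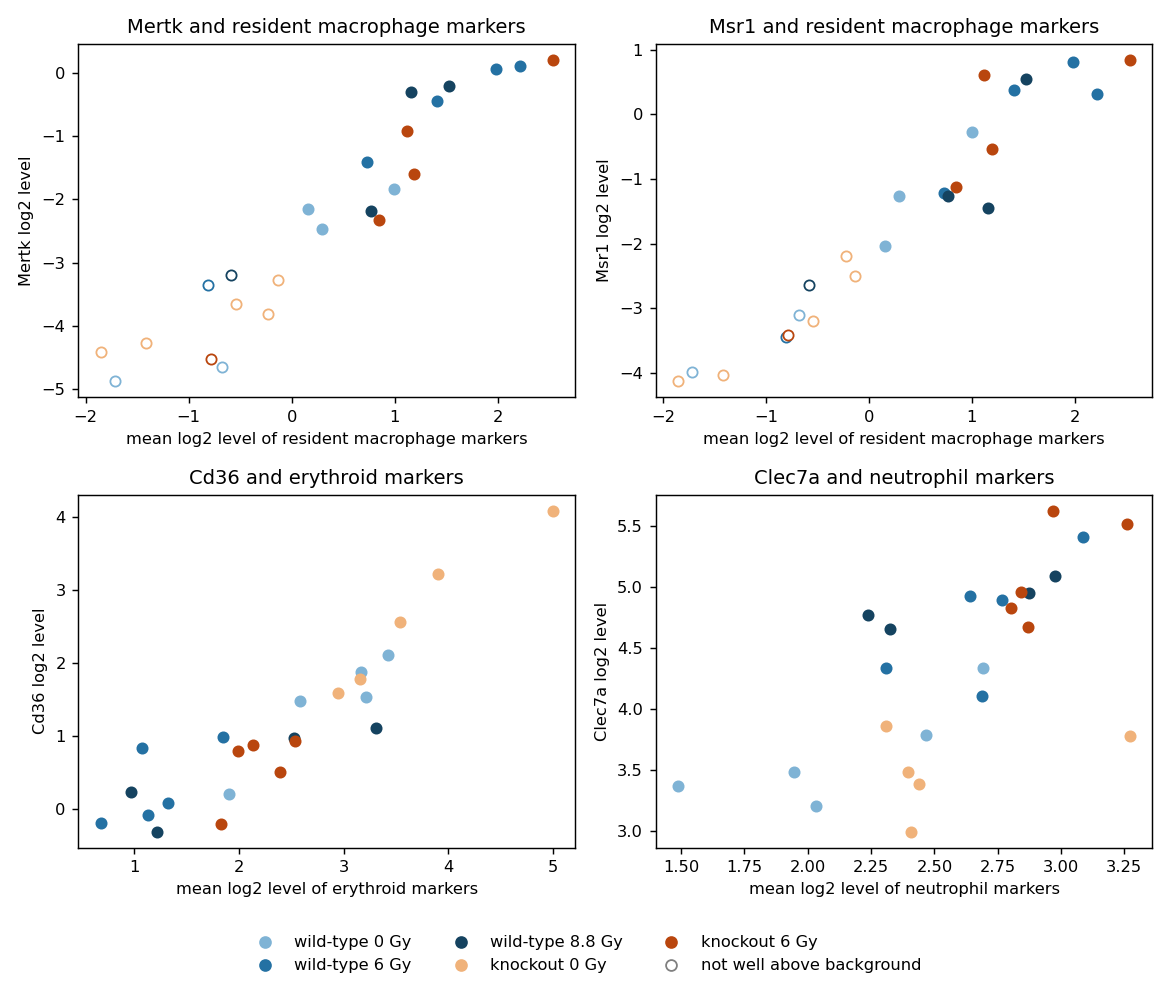
Levels of Mertk, Msr1, Cd36 and Clec7a (y axes, log2) against the mean log2 level of a marker list on the same array (x axes), 24 arrays, coloured by group, with open points not well above background. Mertk and Msr1 climb with the resident macrophage markers, but every knockout sham point of these 2 genes is open, so the climb rests partly on values at background. Cd36 climbs with the erythroid markers, whereas Clec7a lies between 2.99 and 4.34 on sham arrays and between 4.10 and 5.62 on irradiated ones.

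No member passed between genotypes. Against the wild-type sham group, limma called 0 of 10 in the knockout sham group (0.677% of all genes), with no scan day in common, and 2 at an unadjusted p under 0.05 (20.6% of genes). Cd36 had the widest gap from 0 there among genes detected on all arrays, at 1.21 ± 0.43 (adjusted p = 0.141), and Siglec1, at background in both groups, was the one member whose values did not overlap (5.95% of genes). At 6 Gy, limma called 0 of 10 between knockout and wild type (0.877% of genes) and 2 at an unadjusted p under 0.05 (23.3%). Fcgr1 differed by -1.29 ± 0.53 (adjusted p = 0.144) and Siglec1 by -1.15 ± 0.39 (adjusted p = 0.0940, or 0.0467 without wild-type 6 Gy replicate 4). Without the doubted arrays 0 members were called, with Fcgr1 at -1.30 (adjusted p = 0.169) and Siglec1 at an adjusted p of 0.103. Within the single scan day that held 3 knockout and all 5 wild-type 6 Gy arrays these differences were -0.98 and -1.06. On the median-centred scale, where the median of all genes moved by 0.64, Clec7a (1.02, adjusted p = 0.00926) and Fcer1g (0.61, adjusted p = 0.0462) were higher in knockout mice. On that scale 3636 of all genes were called higher in knockout mice and 168 lower.

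At doses of equal lethality (knockout 6 Gy against wild-type 8.8 Gy) limma called 0 members and 0% of all genes, with 0 members and 2.05% of genes at an unadjusted p under 0.05. Each of these groups holds 1 doubted array, and the nearly equal pair has 1 array in each. Without the doubted arrays, which also breaks that pair, 0 members and 1 gene were called and 473 genes had an unadjusted p under 0.05, against 267 with them. The wild-type dose step from 6 to 8.8 Gy likewise gave 0 members and 0% of genes, with 0 members and 18.1% of genes at an unadjusted p under 0.05. Member differences for the dose step lay between -0.84 for Fcgr1 and 0.25 for Fcgr2b. For the interaction of genotype and 6 Gy, limma called 0 members and 6.03% of genes, with 3 members (Fcgr1, Fcgr4 and Siglec1) and 25.6% of genes at an unadjusted p under 0.05. The dose step and the interaction also had 0 members called without the doubted arrays. With SEs up to 1.21, these intervals do not show that the genotypes act alike.

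The list counts above and those that follow are to be read beside all genes. Of these, 15.5%, 7.12% and 12.4% rose and 10.9%, 9.1% and 10.5% fell in the wild-type 6 Gy, wild-type 8.8 Gy and knockout responses. Of 19 signalling genes downstream of these receptors tested, 2 rose and 1 fell at 6 Gy, 2 rose and 1 fell at 8.8 Gy, and 7 rose and 1 fell in knockout mice, with median differences of -0.06, 0.34 and 0.63, so the wild-type counts were near or below the shares of all genes. At wild-type 6 Gy, Card9, the adaptor below Dectin-1, rose by 1.56 ± 0.44 (adjusted p = 0.0134) and the Src-family kinase Fgr by 0.90 ± 0.24 (adjusted p = 0.0110). Malt1, the protease that partners Card9 through Bcl10, fell by 1.53 ± 0.32 (adjusted p = 0.00228). Of 6 subunits of the phagocyte oxidase, which makes superoxide after uptake, 2 rose at wild-type 6 Gy, 0 at 8.8 Gy and 4 in knockout mice. Cyba rose by 1.04 ± 0.31 (adjusted p = 0.0180) and Ncf1 by 0.73 ± 0.25 (adjusted p = 0.0386) at wild-type 6 Gy.

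Other receptors also moved both ways. Of 10 further Fc receptor genes tested, 2 rose and 3 fell at wild-type 6 Gy, and 0 rose and 4 fell in each of the other responses. Fcmr, the IgM receptor of lymphocytes, fell by 3.40 ± 0.47 (adjusted p = 6.01e-05), Fcer1a, the IgE-binding chain of basophils and mast cells, by 2.53 ± 0.40 (adjusted p = 0.000295), and Fcrla, a B-cell protein, by 2.09 ± 0.41 (adjusted p = 0.0016). Fcer1a protein also pairs with Fcer1g, whose own level rose. Of 22 other phagocytic receptors tested, 5 rose and 1 fell at 6 Gy, 5 rose and 1 fell at 8.8 Gy, and 12 rose and 0 fell in knockout mice. Among them Clec4n (Dectin-2) rose by 1.09 ± 0.26 (adjusted p = 0.00519) at wild-type 6 Gy, and the macrophage receptors Timd4 and Marco by 2.33 ± 0.78 (adjusted p = 0.0318) and 1.87 ± 0.63 (adjusted p = 0.0325).

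Markers of the main blood phagocytes had smaller median differences than the interferon genes. Of 13 monocyte markers 0 rose and 1 fell at wild-type 6 Gy, 1 rose and 4 fell at 8.8 Gy, and 1 rose and 4 fell in knockout mice. Irf8, a transcription factor of monocytes and dendritic cells, fell by 1.96 ± 0.31 (adjusted p = 0.000295) in wild-type mice at 6 Gy. Of 16 neutrophil markers 5, 5 and 3 rose and 0, 0 and 2 fell, among them Ly6g, which rose by 1.35 ± 0.27 (adjusted p = 0.00166) at wild-type 6 Gy. Of 17 interferon-response genes, 13 rose in each response and 1, 0 and 1 fell, with median differences of 2.38, 2.68 and 2.45. Mean monocyte marker levels ranged from 0.82 to 1.37 in the wild-type sham group and from 0.59 to 1.22 at 6 Gy, and mean neutrophil marker levels from 1.49 to 2.69 and from 2.31 to 3.09. Within groups, Fcgr1 followed the interferon list (r = 0.66, rho = 0.77, permutation p = 0.00028, adjusted p = 0.007, and r = 0.71 without the 2 farthest arrays). Clec7a followed the neutrophil list (r = 0.63, rho = 0.58, permutation p = 0.00132, adjusted p = 0.0264, and r = 0.62). Fcgr1 was well above background on 11 of 24 arrays, so its correlation rests partly on values at background. The part of these lists in the member results was not tested.

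Among the 10 genes themselves, levels within groups were tied most closely for Msr1 and Mertk (r = 0.92, rho = 0.87, permutation p = 1e-05, adjusted p = 0.00045 over 45 pairs) and for Fcgr4 and Fcer1g (r = 0.72, rho = 0.65, permutation p = 0.0004, adjusted p = 0.009). Both held without the 2 farthest arrays, at 0.92 and 0.72. Msr1 and Mertk were each well above background on 14 of 24 arrays, so their r rests partly on values at background. Fcgr3 and Fcer1g, which form 1 receptor complex, correlated at 0.72 over all arrays and at 0.13 within groups, so most of their shared variation lay between the groups. Fcgr2b correlated with Fcgr1, Fcgr3 and Fcgr4 at -0.39, 0.19 and -0.02 within groups.

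**Figure D4:**
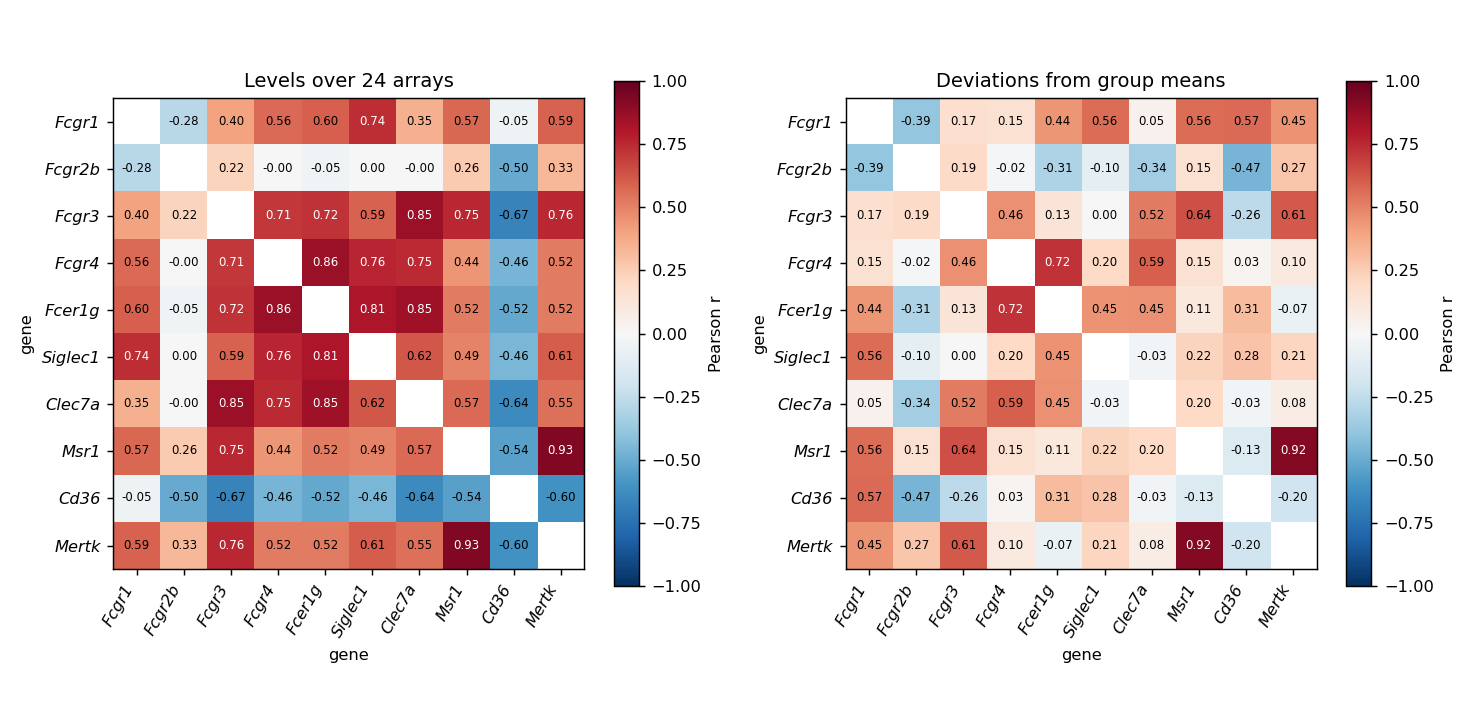
Pearson correlation of each pair of genes over 24 arrays, for levels (left) and for deviations from the group means (right), with r printed in each cell and coloured from -1 to 1. The block of positive values among Fcgr3, Fcgr4, Fcer1g and Clec7a on the left pales on the right, while Msr1 with Mertk keeps 0.92.

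Over all tested genes, the closest pattern to each member by Pearson r across the 24 arrays, group differences included, is given as a description. Igsf6 (r = 0.98), Trem3 (0.96) and Trem1 (0.96) were closest to Clec7a. Stxbp2 (0.95), Slc15a3 (0.92) and Trim34b (0.91) were closest to Fcer1g, and Trim34b (0.88), Gbp2 (0.87) and Fcer1g itself (0.86) to Fcgr4. P2ry2 (0.93), Slc11a1 (0.91) and Dhrs7 (0.91) followed Fcgr3. The high values for Msr1, with Cfp (0.98), Garnl3 (0.97) and Vmn2r26 (0.97), and for Mertk, with Cxcl14 (0.97), Wtip (0.96) and Rai14 (0.95), rest partly on arrays at background. Cd36 went with Rhd (0.95), Rph3al (0.95) and Ttc39a (0.95). Fcgr1 was closest to Oit1 (0.89), Mlkl (0.86) and Pmp22 (0.84), Siglec1 to Cdiptos (0.87), Tatdn3 (0.86) and Pmp22 (0.85), and Fcgr2b to Dip2c (0.85), Plcb3 (0.85) and Myo18a (0.84).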

How the data were processed

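Single-colour (Cy3) Agilent arrays of 24 mice were read with Agilent Feature Extraction 11.5.1, per the submitters' processing notes; probe coordinates are mm9, per the file headers. The deposited processed signal of each spot is an intensity, background-subtracted by the scanner software. Here log2 of it was taken, spots of a probe were averaged and the array's 75th percentile subtracted. No methods text states a design, so 5 group means were fitted over all 24 arrays with limma 3.58.1 in R 4.3.3, and p-values were adjusted over the 12993 genes tested. Replicates are individual mice. The named genes are the 10 members, up to 3 passing genes per list with the smallest adjusted p at wild-type 6 Gy, Parp1, and the 3 genes closest to each member. One gene that this rule names is not reported here. Members and lists were chosen with earlier results of these data known.

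The authors' deposited table lists 6 of the 10 members, as log2 values whose column medians run from 7.63 to 8.09. They equal log2 of the processed signal plus 1 constant per array, with no centring of genes, and how that constant was set is not known. It served as an alternative. In all, 14 alternatives and 24 refits without 1 array were run, and the code was tested on simulated data.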

Additional observations from a re-analysis of the deposited data

Results flagged for a closer look

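One value of 50 groups tested for an array far from the others stood apart. Fcgr4 on wild-type 0 Gy replicate 3 was at 2.23, above the other 4 sham arrays, which lay between 1.41 and 1.65. Chance gives about 1 such value in 20 groups, so 1 in 50 is no more than chance gives. The wild-type 6 Gy call for Fcgr4 held in each of the 24 refits that left out 1 array (adjusted p up to 0.00413).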

How the results depend on the processing

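The counts of members called are 7, 5 and 5 in the wild-type 6 Gy, wild-type 8.8 Gy and knockout responses and 0 in the other 5 comparisons. Median centring gave 4 (3 higher, 1 lower) and 3 (2 higher, 1 lower) in the wild-type responses, 2 between the genotypes at 6 Gy and 1 for the interaction. Of all 12993 genes, it called 532 higher and 5553 lower at wild-type 6 Gy, and 499 and 1989 at 8.8 Gy. Between the genotypes at 6 Gy it called 3636 higher and 168 lower, and for the interaction 3506 and 430. The median of all genes moved by -0.32 at 8.8 Gy and by 0.82 for the interaction. The planned normexp background correction gave 3, 2, 6 for knockout 6 Gy against wild-type 8.8 Gy, and 2 for the wild-type dose step, and put Fcer1g at -0.0158 at 8.8 Gy. Of all genes, it called 635 higher and 819 lower at wild-type 6 Gy, and 2435 and 2421 at 8.8 Gy. For knockout 6 Gy against wild-type 8.8 Gy it called 2912 higher and 2823 lower, and for the dose step 818 and 1338. It estimated a background mean between -706 and -51.8 on 7 arrays. A repeat without spots dimmer than their local background, chosen after seeing the data, gave 0 in those last comparisons and 5, 3 and 4 in the responses. In the responses that repeat called 1064, 651 and 1338 of all genes higher and 1241, 1355 and 1080 lower. Only probes well above background on all 24 arrays left 5 members, of which 4 were called at wild-type 6 Gy. No filter gave 1 for the interaction. A fixed term for slide or for scan day gave 0 in each response, with Msr1 in knockout mice at -0.104. Leaving out 1 array gave 5 to 8, 4 to 5 and 4 to 7 in the responses, 0 to 1 between the genotypes at 6 Gy and for the interaction, and 0 in the other 3 comparisons. For refits other than median centring and normexp, the shares of all genes called are not given here.

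With the replicate block the counts were 6, 5 and 4 and 0 elsewhere, Mertk (adjusted p = 0.0640) and Msr1 (0.0598) being lost. Numbers do not pair the arrays: deviations of same-numbered arrays correlated at a median of -0.0445 (from -0.770 to 0.749 over 46 pairs), and 3 of 24 arrays matched best with their own number. Of the 17 calls of single members, 12 could be refitted in the authors' deposited table and all 12 held, while Cd36 at wild-type 6 Gy and Fcgr4 in knockout mice were called there in addition. Signal over background limits Fcgr1, Siglec1, Msr1 and Mertk, which were well above it on 11, 8, 14 and 14 of 24 arrays.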
